A study of Mus musculus with 6 samples.

Results

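The mitochondrial biogenesis regulator genes examined here are Ppargc1a, Ppargc1b, Pprc1, Esrra, Esrrg, Ppara, Ppard, Nrf1, Gabpa and Tfam, and their members in the data are the accessible intervals of ATAC-seq that overlap the body of a gene or lie within 10 kb of one of its transcription start sites (TSS). By the GENCODE vM1 annotation of mm9 this gave 47 of the 39768 intervals in the table, between 1 for Tfam and 11 for Ppard. The paper's methods name a larger union of intervals, and counts and shares here refer to the table as analysed. A promoter interval of a member gene has its midpoint within 1 kb of an annotated TSS of that gene. This held for 22 of the 47 (46.8%). Over all intervals a TSS of any gene sufficed, which gave 52.4%, so the shares are not like for like. Of the other members, 19 were intronic, 5 lay upstream of the gene and 1 lay downstream. Among them, Peak_38805, Peak_38809 and Peak_38813 lay within 1 kb of a TSS of a neighbouring gene. For 14 of the 47 the nearest TSS belonged to a neighbouring gene. ATAC-seq uses the transposase Tn5, which inserts adapters where nucleosomes leave the DNA exposed, and counting fragment ends over an interval measures how open its chromatin is.

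The study asked whether the histone variant H2A.Z is needed for transcription and chromatin structure in muscle cells that no longer divide. The 6 libraries were made from 50000 muscle nuclei each, taken from C57BL/6 mice at an age of 7 weeks. All mice carried floxed alleles of both genes for the variant, flox/flox at H2A.Z-1 and also at H2A.Z-2. The 3 CTL libraries came from mice without Cre and the 3 libraries labelled H2A.Z dKO from mice with HSA-Cre. The HSA promoter drives Cre in post-mitotic muscle fibres, and nuclei of other cells in the muscle keep H2A.Z. A smaller share of nuclei of a given type and a less open site in that type cannot be told apart in such bulk libraries. The labels name the tibialis anterior and purification by ultracentrifugation, whereas the paper's methods have hind limb muscles and a Dounce homogenizer. The labels call the controls WT, and whether the replicates were separate mice is not stated there, so the spread between libraries may be partly technical.

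Mitochondrial biogenesis in muscle is governed by a chain of nuclear factors. The PGC-1 coactivators (Ppargc1a, Ppargc1b and Pprc1) bind no DNA themselves and are recruited by estrogen-related receptors (Esrra, Esrrg), by peroxisome proliferator-activated receptors (Ppara, Ppard) and by the nuclear respiratory factors NRF-1 (Nrf1) and NRF-2 (Gabpa encodes its DNA-binding subunit). These factors switch on genes of the respiratory chain, of fatty acid oxidation and Tfam, whose product packages mitochondrial DNA and starts its transcription. Ppargc1a is known for its strong expression in oxidative muscle and its response to exercise.

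The sequences below show what the Tn5 insertions in these intervals cover. They were taken from the mm9 genome on the strand of the gene, 5′ to 3′, without annotated exons and up to 200 bases long. Shown are the promoters with the most fragment ends of Esrra, Pprc1, Ppard, Nrf1 and Tfam, the Ppara promoter interval that holds the letters of an NRF-1 site, and the Ppargc1a interval with the largest positive fold change. Capitals mark exact matches on either strand of the NRF-1 core (GCATGCGC), of the GC box bound by Sp factors (GGGCGG) or of the CCAAT box (CCAAT).
Esrra, Peak_38025, chr19:6996304-6996503, minus strand: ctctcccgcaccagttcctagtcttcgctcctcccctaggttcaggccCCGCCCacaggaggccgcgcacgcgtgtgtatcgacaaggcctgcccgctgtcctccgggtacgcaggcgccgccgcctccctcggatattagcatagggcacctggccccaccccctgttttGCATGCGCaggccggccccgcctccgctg
Ppara, Peak_32681, chr15:85566144-85566205, plus strand: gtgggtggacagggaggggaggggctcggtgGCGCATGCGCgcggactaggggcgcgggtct
Ppard, Peak_35136, chr17:28369499-28369698, plus strand: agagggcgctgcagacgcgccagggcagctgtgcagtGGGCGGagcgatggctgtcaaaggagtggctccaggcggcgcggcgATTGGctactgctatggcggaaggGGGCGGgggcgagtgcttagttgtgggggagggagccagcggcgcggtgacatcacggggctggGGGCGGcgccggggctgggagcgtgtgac
Nrf1, Peak_12551, chr6:29997865-29997987, plus strand: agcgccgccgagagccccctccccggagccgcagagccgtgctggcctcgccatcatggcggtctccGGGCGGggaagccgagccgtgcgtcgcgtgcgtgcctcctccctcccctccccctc
Pprc1, Peak_38811, chr19:46130829-46131028, plus strand: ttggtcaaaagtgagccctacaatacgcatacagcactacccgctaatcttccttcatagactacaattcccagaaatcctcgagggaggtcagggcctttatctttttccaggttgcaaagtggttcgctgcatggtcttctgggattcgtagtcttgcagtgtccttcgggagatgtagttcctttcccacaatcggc
Tfam, Peak_22500, chr10:70701029-70701127, minus strand: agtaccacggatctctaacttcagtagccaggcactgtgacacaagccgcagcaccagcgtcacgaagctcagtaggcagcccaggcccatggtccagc
Ppargc1a, Peak_10434, chr5:51944215-51944278, minus strand: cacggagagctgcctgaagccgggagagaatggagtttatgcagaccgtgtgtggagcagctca

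The Esrra promoter holds the NRF-1 core from position 172 of the printed bases and a GC box on the other strand from position 49. In Ppara the match is a palindrome with GC before the core, so that it reads the same on both strands. Ppard has 3 GC boxes and a CCAAT box in reverse. The stretches of Pprc1, Tfam and Ppargc1a hold none of these letters, which says nothing about other forms of the sites or about bases not printed. A window of 151 bp centred on the Tfam interval holds 2 GC boxes, outside the printed bases. Over windows of 151 bp centred on the intervals, the NRF-1 core occurred in 1 of 22 member promoters (4.55%, against 2.91% of all 20827 promoter intervals) and the GC box in 10 of 22 (45.5% against 51.1%). The receptor half-site AAGGTCA, bound by estrogen-related receptors, occurred in 1 of 22, at Peak_38026 of Esrra itself (4.55% against 1.26%). The ETS site CCGGAAG, bound by the product of Gabpa, and the cyclic AMP response element TGACGTCA occurred in 0 of 22 windows, with 9.85% and 1.86% over all promoter intervals. CCAAT occurred in 3 of 22 (13.6% against 20.5%). The core of the Esrra promoter does not count here, since it lies outside the central window. The member promoter intervals had a median GC content of 67.6%, close to the 65.3% of all promoter intervals.

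Library totals ran from 3520008 to 6117245 fragment ends. The loxP sites flank exons 2 to 4 of H2afz, the gene of H2A.Z-1, at chr3:137528097-137529104. The 2 intervals within that segment, 13 and 21 bp wide, summed to 9.35 to 14.9 CPM (counts scaled to the library total with TMM factors) in CTL and to 10.0 to 12.6 CPM in the libraries labelled H2A.Z dKO. They overlapped, so these counts did not separate the groups, and each direction given here rests on the labels. No interval lies in the floxed segment of H2afv, the gene of H2A.Z-2. Of 12 muscle fibre marker genes, 8 had a promoter interval, among them Ckm and Acta1. H2A.Z dKO library 1 stood apart from the other 5, with 77.0% of its fragment ends in promoter intervals against 73.2% to 74.9%.

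At the members, library H2A.Z dKO 1 was the highest or the lowest of the 6 at 32 of 47 intervals (68.1%, against 48.7% of all intervals). It was the highest at 13 of the 22 promoter intervals and the lowest at 10 of the 25 others. Its median deviation from the mean of the 6 libraries was 0.21 on the log2 CPM scale at member promoters and -0.24 outside them, as the plot of deviations by library shows. The same medians over all intervals were 0.085 and -0.13. The remaining 5 libraries had medians of -0.11 to 0.047 at member promoters and of -0.090 to 0.11 outside them. The main differences below are therefore given with and without this library.

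**Figure D1:**
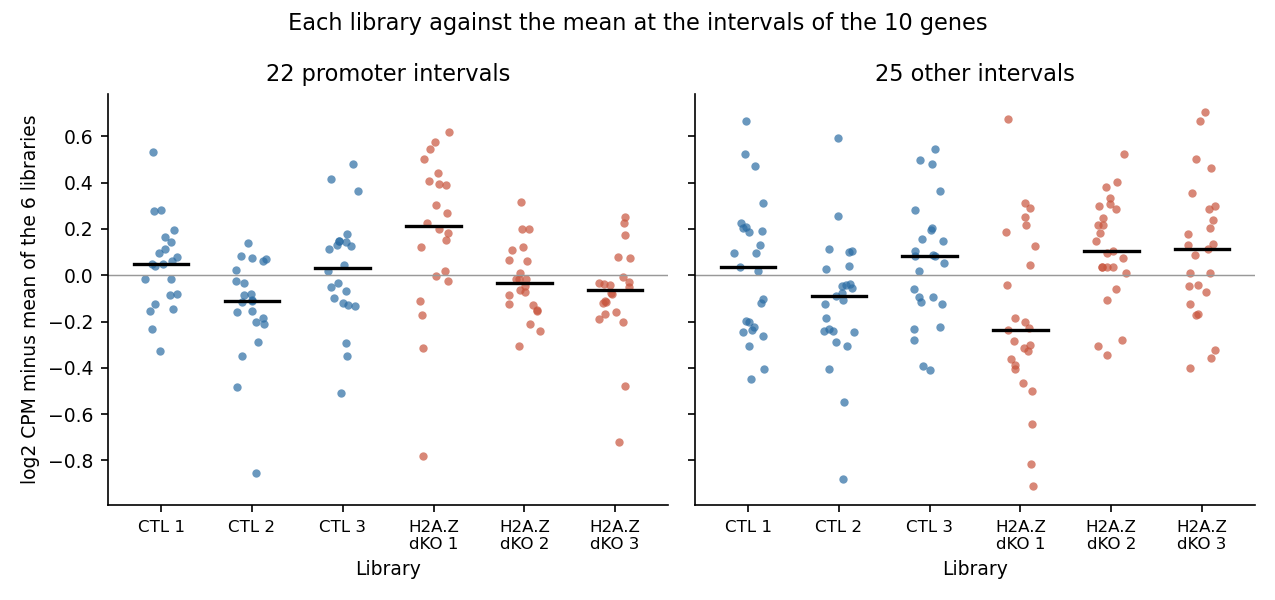
Deviation of each library from the mean of the 6 libraries (vertical axis, log2 CPM) at the 22 promoter intervals and the 25 other intervals of the 10 genes. Points are intervals and bars are medians; library H2A.Z dKO 1 has the highest median at promoters (0.21) and the lowest elsewhere (-0.24).

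The level of accessibility differed more between the genes than between the genotypes. Levels were compared per length, as RPKM (counts relative to the width of the interval in kb and to the library total), at the promoter interval with the most counts of each gene. Esrra stood highest with 284 ± 15.7 RPKM (SD, n = 6 libraries), followed by Gabpa with 278 ± 16.8 RPKM and Pprc1 with 245 ± 13.3 RPKM. Below them were Ppard (192 ± 29.1 RPKM), Ppara (185 ± 17.1 RPKM), Nrf1 (159 ± 19.8 RPKM), Tfam (153 ± 19.3 RPKM) and Ppargc1b (152 ± 28.2 RPKM). Ppargc1a had the least open promoter of the 9 genes that have such an interval, with 96.5 ± 9.67 RPKM. Esrrg had none, and the intronic interval with its most counts stood at 71.4 ± 15.5 RPKM.

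In that order Gabpa exceeded Pprc1, Pprc1 exceeded Ppard, Ppargc1b exceeded Ppargc1a, and Ppargc1a exceeded the Esrrg intron in 6 of 6 libraries. The neighbours Esrra and Gabpa, Nrf1 and Tfam, and Tfam and Ppargc1b kept their order in 4 of 6 libraries, Ppara and Nrf1 in 5 and Ppard and Ppara in 3, so these pairs did not differ beyond their spread. Of all promoter intervals, 97.2% lay below that of Esrra, 96.8% below that of Gabpa and 20.0% below that of Ppargc1a. Fragment ends were extended before counting, which raises the RPKM of narrow intervals. With 37 bp added to each width the order was the same, but Ppargc1a (64.0 RPKM) and Esrrg (63.9 RPKM) then stood level. The 23 bp interval Peak_35135, which lies inside the Ppard promoter interval Peak_35136, had the highest level of all members by this measure (426 ± 68.8 RPKM), and 163 RPKM with the added bases.

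**Figure D2:**
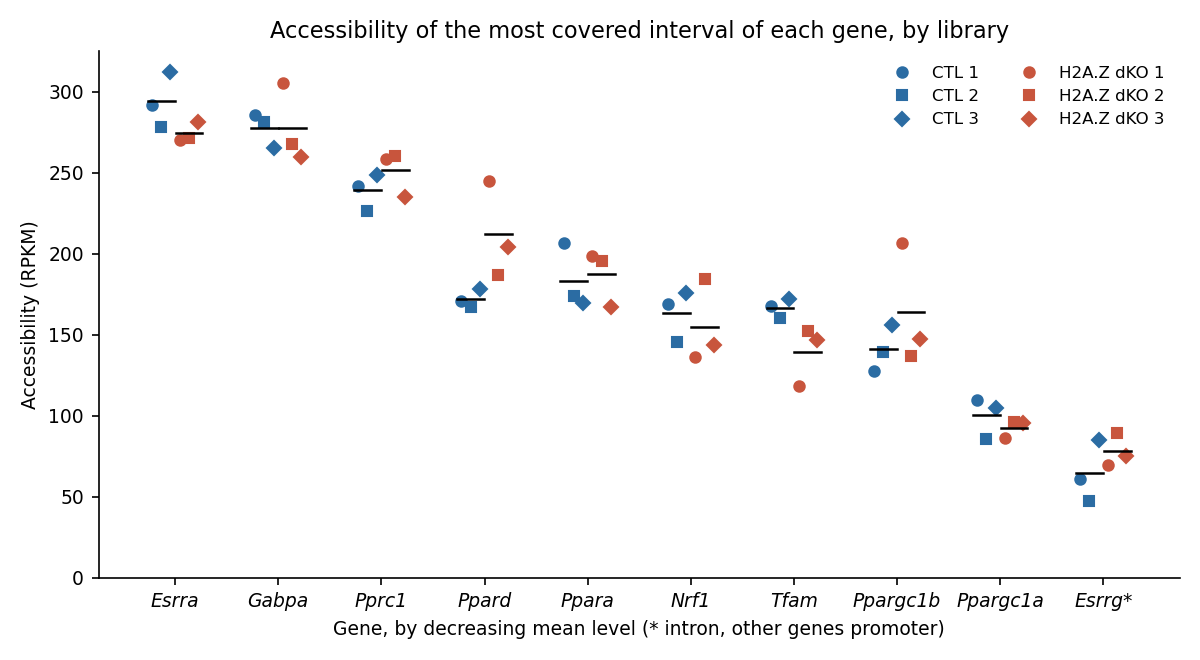
Accessibility (RPKM) of the promoter interval with the most counts of each gene in the 3 CTL (blue) and 3 H2A.Z dKO libraries (red). For Esrrg, which has no promoter interval, the intronic interval with the most counts is shown. Black bars are group means. Levels fall from 284 RPKM at Esrra to 71.4 RPKM at Esrrg. The groups overlap at 8 of the 10 genes on this scale, and stand apart at Ppard and Tfam. Over all intervals the groups stood apart at 10.8%, which was counted in CPM only.

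Between the genotypes, 0 of the 47 member intervals passed an adjusted p of 0.05 (Benjamini-Hochberg over the whole table) with edgeR, as did 0% of all intervals, and member adjusted p-values ran from 0.972 to 0.9995. DESeq2 called 0 as well. At an unadjusted p under 0.05 edgeR had 5 members (3 higher and 2 lower in H2A.Z dKO than in CTL, 10.6% against a background of 4.95%), and DESeq2 had 1 (1.90% of all intervals). The 5 became 3 without CTL library 1 or 3 and 8 without H2A.Z dKO library 2. The CPM of the groups did not overlap at 6 members, 3 in each direction (12.8%, against 10.8% of all intervals). Log2 fold changes of H2A.Z dKO over CTL ran from -0.84 to 0.64 with a median of 0.13 over the members and 0.012 over all intervals. They were positive at 31 members and negative at 16. Without H2A.Z dKO library 1 the median over the members was 0.055 (0.0015 over all intervals), 28 were positive and 7 changed sign. It was 0.060 without CTL library 2 or H2A.Z dKO library 2. At the member promoters alone the median went from 0.11 to -0.029 without H2A.Z dKO library 1, and over all promoter intervals from 0.011 to -0.039.

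The error of these values sets how large a change could have been missed. The 95% confidence interval of the fold change lay within a 2-fold change either way at 42 of the 47 members (89.4%, against 91.4% of all intervals) and within a 1.5-fold change at 19 (40.4% against 49.6%). The mean count per library of a member ranged from 11 to 796. The widest confidence intervals were those of Peak_32682 of Ppara (-0.50 to 0.97) and Peak_2379 of Esrrg (-0.67 to 0.78), as the plot of fold changes shows.

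**Figure D3:**
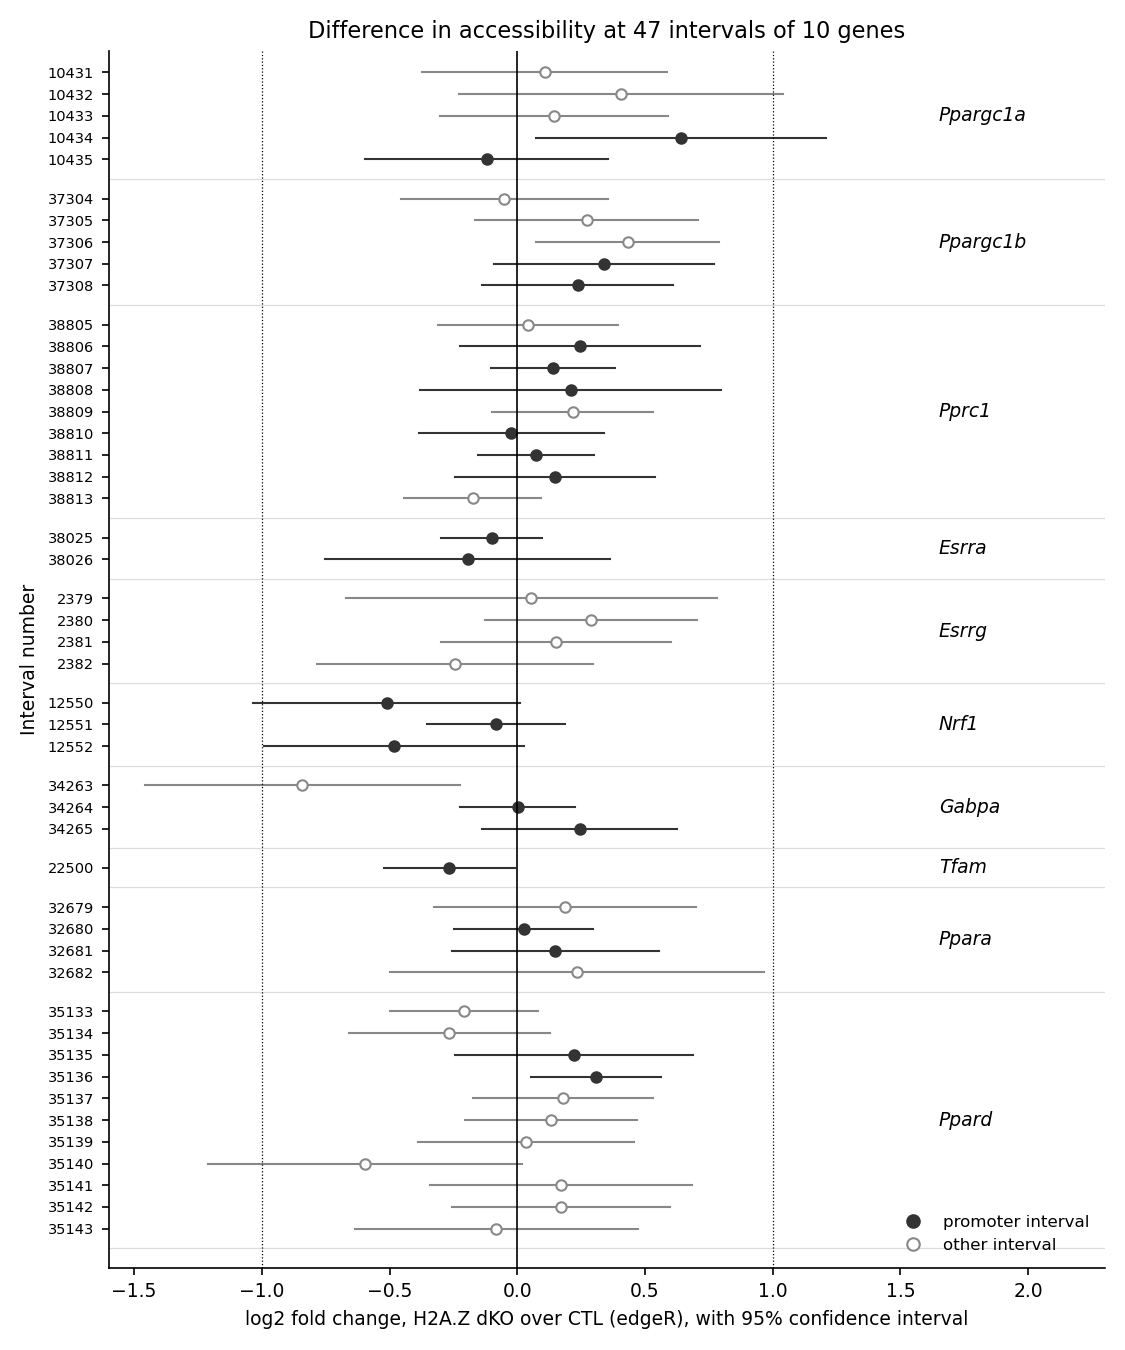
Log2 fold change (H2A.Z dKO over CTL, edgeR) with its 95% confidence interval at each of the 47 intervals, named by number and grouped by gene. Filled points are promoter intervals, open points the others, and dotted lines mark a 2-fold change; 42 of the 47 intervals of error stay between them.

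Ppargc1a, the coactivator gene most responsive to exercise and cold, lies on the minus strand of chromosome 5 (chr5:51845488-51958964). GENCODE gives it TSSs in 2 groups, up to 13868 bp apart, and its promoter intervals lie at the group further inside the gene, whereas the distal one had no interval. All 5 of its intervals were narrow (64 to 165 bp) and were listed by the authors as peaks of H2A.Z dKO only. Peak_10435, at its proximal TSS, had 8.03, 6.28 and 7.65 CPM in CTL libraries 1 to 3 and 6.49, 6.93 and 6.86 CPM in H2A.Z dKO libraries 1 to 3. The H2A.Z dKO values lay inside the CTL range, with a log2 fold change of -0.12 (SE, the standard error, 0.23, edgeR adjusted p = 0.993) that was -0.092 without H2A.Z dKO library 1, -0.032 without CTL library 1 and -0.22 without CTL library 2, although the interval is listed for the other group only.

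At Peak_10434 (chr5:51944215-51944278), in an intron 850 bp past that TSS, CTL had 5.08, 2.60 and 3.68 CPM and H2A.Z dKO 6.84, 5.84 and 5.49 CPM. The groups did not overlap, and the log2 fold change of 0.64 (SE 0.27, edgeR adjusted p = 0.972) was the largest of the positive ones. It rests on 12 to 39 counts per library and was 0.53 without H2A.Z dKO library 1 and 0.98 without CTL library 1. The other 3 intronic intervals had log2 fold changes of 0.11 to 0.41 and overlapping groups, and ran from -0.0021 to 0.73 with a library left out. At Peak_10432 H2A.Z dKO libraries 2 and 3 had 8.66 and 9.80 CPM while library 1, with 3.86 CPM, was the lowest of the 6.

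Ppargc1b, the coactivator related most closely to Ppargc1a, lies on the minus strand of chromosome 18 and had 5 intervals. Its TSS interval Peak_37308 had 25.2, 27.5 and 30.6 CPM in CTL and 41.9, 26.6 and 28.6 CPM in H2A.Z dKO. Only library 1 lay above the CTL values, and the log2 fold change of 0.24 (SE 0.18, edgeR adjusted p = 0.972) was 0.0060 without it and 0.36 without H2A.Z dKO library 2. The intronic Peak_37306, 1302 bp past the TSS and the most accessible member outside promoters (172 RPKM), had 40.6, 48.9 and 42.8 CPM in CTL and 80.2, 51.5 and 46.1 CPM in H2A.Z dKO. H2A.Z dKO libraries 1 and 2 lay above all CTL values and library 3 lay among them. Its log2 fold change of 0.43 (SE 0.17) had an unadjusted p under the threshold and an edgeR adjusted p of 0.972, and it was 0.15 without H2A.Z dKO library 1. In contrast, Peak_37304, 20044 bp past the TSS, had its lowest value in that library (16.5 CPM, against 18.6 to 25.2 CPM in the others).

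Pprc1 encodes the PGC-1-related coactivator, known from growth-stimulated cells, and lies on the plus strand of chromosome 19 between Ldb1 and Nolc1. Of its 9 intervals 6 are promoter intervals, and 6 of the 9 are nearest to a TSS of Ldb1 or Nolc1. The main interval Peak_38811 (chr19:46130813-46131143) had 80.3, 75.1 and 82.1 CPM in CTL and 88.2, 84.8 and 76.7 CPM in H2A.Z dKO, with overlapping groups and a log2 fold change of 0.074 (SE 0.11, edgeR adjusted p = 0.989) that was 0.029 without H2A.Z dKO library 1 and 0.12 without library 3. At the intronic Peak_38809 the groups did not overlap, with 30.5, 31.4 and 30.6 CPM in CTL and 40.5, 33.3 and 33.3 CPM in H2A.Z dKO. The log2 fold change there was 0.22 (edgeR adjusted p = 0.972) and 0.11 without H2A.Z dKO library 1. Peak_38813, near the TSS of Nolc1, had a log2 fold change of -0.17 that was -0.081 without H2A.Z dKO library 1 and -0.30 without H2A.Z dKO library 3.

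Esrra encodes the estrogen-related receptor that PGC-1 coactivates in muscle, and Esrrg its relative found in oxidative fibres and heart. The Esrra promoter interval Peak_38025 (chr19:6996167-6996734) held the most counts of all members. It had 166, 158.4 and 177 CPM in CTL and 158.2, 152 and 157 CPM in H2A.Z dKO. The 3 H2A.Z dKO values lay just below the 3 CTL values on this scale and overlapped them in RPKM, which uses no scaling factors, and the log2 fold change was -0.10 (SE 0.095, edgeR adjusted p = 0.981), and -0.11 without H2A.Z dKO library 1 and -0.055 without CTL library 3. Its confidence interval of -0.30 to 0.098 was the narrowest of the members. Peak_38026, at -616 bp from the TSS and with the half-site AAGGTCA in its 151 bp window, had a log2 fold change of -0.19 and overlapping groups. This value was -0.40 without H2A.Z dKO library 1 and 0.039 without H2A.Z dKO library 3.

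Esrrg spans 606095 bp of chromosome 1 and had 4 intronic intervals and no promoter interval in the table. Peak_2380 had 19.3, 15.1 and 26.9 CPM in CTL and 22.8, 27.9 and 23.5 CPM in H2A.Z dKO, a log2 fold change of 0.29 (SE 0.20, edgeR adjusted p = 0.972) that was 0.35 without H2A.Z dKO library 1, 0.12 without CTL library 2 and 0.51 without CTL library 3. The overlapping pair Peak_2381 and Peak_2382, which share some fragment ends, had log2 fold changes of 0.15 and -0.24, and both changed direction with a library left out. Peak_2381 was -0.11 without H2A.Z dKO library 3 and 0.30 without library 1, and Peak_2382 was 0.043 without CTL library 1 and -0.44 without H2A.Z dKO library 3. Peak_2379, the narrowest of the 4, held 9 to 14 counts per library, or 1.64, 2.16 and 3.12 CPM in CTL against 1.58, 2.60 and 2.74 CPM in H2A.Z dKO. Its log2 fold change of 0.055 (SE 0.35, edgeR adjusted p = 0.998) was 0.29 without H2A.Z dKO library 1 and changed direction when other single libraries were left out.

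Ppara and Ppard encode fatty acid sensors that act with retinoid X receptors, the former prominent in liver and the latter in muscle. At the Ppara promoter Peak_32680 had 62.7, 52.8 and 51.3 CPM in CTL and 62.1, 58.4 and 49.8 CPM in H2A.Z dKO, which interleave, and the log2 ratio came to 0.025 (SE 0.13, edgeR adjusted p = 0.998), or -0.053 without H2A.Z dKO library 1. Peak_32681, with the palindromic NRF-1 match printed above, had 22.0, 17.96 and 20.1 CPM in CTL and 28.2, 17.96 and 20.2 CPM in H2A.Z dKO. Its log2 fold change of 0.15 was -0.072 without H2A.Z dKO library 1. The other 2 Ppara intervals held 14 to 54 counts per library, with log2 fold changes of 0.19 at Peak_32679 and 0.23 at Peak_32682. Without H2A.Z dKO library 1 these were 0.39 and 0.50. Peak_32679 was 0.041 without H2A.Z dKO library 3, and Peak_32682 ran from -0.056 without CTL library 2 to 0.89 without CTL library 1.

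The Ppard promoter interval Peak_35136 (chr17:28369440-28369848) had the smallest p of the members that stood higher. CTL libraries had 69.9, 68.6 and 72.8 CPM and H2A.Z dKO libraries 103, 75.3 and 82.2 CPM, without overlap. The log2 fold change was 0.31 (SE 0.12, 95% confidence interval 0.053 to 0.56, edgeR adjusted p = 0.972), and 0.16 without H2A.Z dKO library 1. Peak_35135, the 23 bp interval within it, had 9.99, 10.2 and 6.80 CPM in CTL and 11.9, 9.74 and 10.2 CPM in H2A.Z dKO. The groups overlapped, and its log2 fold change of 0.22 (SE 0.22, edgeR adjusted p = 0.982) was 0.12 without H2A.Z dKO library 1 and 0.084 without CTL library 3. Upstream of the gene, Peak_35133 and Peak_35134, with midpoints at -8484 and -6502 bp from the TSS, had log2 fold changes of -0.21 and -0.27, which were -0.42 and -0.18 without H2A.Z dKO library 1. With each library left out in turn, Peak_35133 ran from -0.42 to -0.11 (without H2A.Z dKO library 3) and Peak_35134 from -0.38 (without CTL library 2 or H2A.Z dKO library 2) to -0.16 (without CTL library 1). The 7 intronic intervals of Ppard ran from -0.60 at Peak_35140, with 13 to 34 counts per library, to 0.18 at Peak_35137. The value of Peak_35140 was -0.36 without H2A.Z dKO library 1 and -0.90 without library 2, and that of Peak_35137 was 0.066 without library 3. Peak_35142 overlaps both Peak_35141 and Peak_35143, and all 3 lie nearer to a TSS of Fance than to any of Ppard.

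Nrf1 encodes NRF-1, an activator of nuclear genes for the respiratory chain, and its 3 promoter intervals were all lower on average in H2A.Z dKO. The interval at the TSS, Peak_12551 (chr6:29997865-29998263), had 67.5, 58.2 and 69.9 CPM in CTL and 56.0, 72.5 and 56.5 CPM in H2A.Z dKO. H2A.Z dKO library 2 was the highest of the 6 and library 1 the lowest, and the log2 fold change was -0.083 (SE 0.13, edgeR adjusted p = 0.993), and -0.018 without library 1, -0.21 without library 2 and -0.16 without CTL library 2. The narrower flanking intervals Peak_12550 and Peak_12552 had log2 fold changes of -0.51 and -0.48 (both edgeR adjusted p = 0.972) with overlapping groups. Without H2A.Z dKO library 1 these values were -0.65 and -0.25, while Peak_12550 was -0.34 without CTL library 1 and Peak_12552 was -0.73 without H2A.Z dKO library 2.

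Gabpa shares its promoter with Atp5j, which encodes a subunit of the mitochondrial ATP synthase, so fragment ends there cannot be given to either gene. Peak_34264 (chr16:84835012-84835394) had 109.8, 108.0 and 101.4 CPM in CTL and 120.5, 101.1 and 98.1 CPM in H2A.Z dKO, a log2 fold change of 0.0020 (SE 0.11, edgeR adjusted p = 0.9995) that was -0.10 without H2A.Z dKO library 1. The H2A.Z dKO libraries lay on both sides of the CTL values. Peak_34265, beside it, had a log2 fold change of 0.25 that was -0.040 without H2A.Z dKO library 1, its highest library with 50.2 CPM against 27.5 to 35.1 CPM. Peak_34263, at -9612 bp from the TSS and nearest to Atp5j, had the smallest p of the members that stood lower. It held 17 to 23 counts in CTL and 10 to 16 in H2A.Z dKO, or 3.77, 4.98 and 4.81 CPM against 1.75, 2.60 and 3.14 CPM. The groups did not overlap, and the log2 fold change was -0.84 (SE 0.30, edgeR adjusted p = 0.972) and -0.62 without H2A.Z dKO library 1.

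Tfam had a single interval, at its promoter on the minus strand of chromosome 10 (Peak_22500, chr10:70700742-70701127). CTL libraries had 64.9, 62.1 and 66.3 CPM and H2A.Z dKO libraries 47.2, 58.0 and 55.7 CPM. All 3 H2A.Z dKO values lay below all 3 CTL values, with H2A.Z dKO library 1 the lowest. The log2 fold change was -0.27 (SE 0.12, 95% confidence interval -0.52 to -0.010, edgeR adjusted p = 0.972), and -0.18 without that library. Together with Peak_12551 and Peak_12552 of Nrf1, it is among the 3 member promoter intervals at which library 1 stood lowest.

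Summing the promoter intervals of each gene gave 9 members to set beside 12289 genes. edgeR called 0 of the 9 at an adjusted p of 0.05 (0% of all genes), with adjusted p-values of 0.947 to 0.971, and DESeq2 called 0. At an unadjusted p under 0.05 there was 1, Ppard (4.33% of all genes), by either tool, and the groups did not overlap at 3 (10.2% of all genes). These were Ppard and Pprc1, which stood higher, and Tfam, which stood lower. The Pprc1 sum includes Peak_38806, Peak_38807 and Peak_38808, which lie nearest to a TSS of Ldb1, so it cannot be given to Pprc1 alone. The H2A.Z dKO level was 124% of CTL at Ppard (95% confidence interval 105% to 145%), 122% at Ppargc1b (96.6% to 154%) and 115% at Ppargc1a (86.7% to 154%). It was 108% at Pprc1 (94.7% to 123.1%), 105% at Gabpa (90.0% to 122%) and at Ppara (88.4% to 124%). Lower values were 93.8% at Esrra (82.1% to 107%), 89.7% at Nrf1 (73.9% to 109%) and 84.0% at Tfam (70.3% to 100.3%). A 1.5-fold change either way lay outside the interval of error at 7 of the 9 genes (86.2% of all genes). The median log2 fold change was 0.070 over the 9 and 0.0079 over all genes. Without H2A.Z dKO library 1, Gabpa (-0.046) and Ppara (-0.019) turned negative and the other 7 kept their direction. In that fit Ppargc1b went from 0.29 to 0.070, Ppard from 0.31 to 0.20, Pprc1 from 0.11 to 0.074, Tfam from -0.25 to -0.14 and Nrf1 from -0.16 to -0.067. Leaving out other single libraries moved sums as well. The 0.21 of Ppargc1a was 0.059 without CTL library 2 and 0.37 without CTL library 1 (and -0.11 with a promoter window of 500 bp, which leaves out Peak_10434), the -0.092 of Esrra was -0.043 without CTL library 3 and -0.14 without CTL library 2, and Nrf1 had -0.30 without H2A.Z dKO library 2 and -0.25 without CTL library 2.

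The authors' listing of intervals as peaks of both groups or of 1 group went with the counts only in part, and rests on the same libraries. Of the 47 members, 21 were peaks of both, 18 of H2A.Z dKO alone and 8 of CTL alone (44.7%, 38.3% and 17.0%, against 38.7%, 43.4% and 17.9% of all intervals). Over the 18 the median log2 fold change was 0.16 with 15 positive, beside 0.11 and 69.8% positive over all intervals listed for H2A.Z dKO alone. Over the 8 it was -0.16 with 3 positive, beside -0.13 and 29.5% positive over all intervals listed for CTL alone, so the members lay near the background. Intervals listed for 1 group were shallower than those listed for both, with median counts of 50.4 and 33.4 against 259 per library.

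Partners and targets of the 10 regulators were described by the same promoter sums. Of 24 coregulators and partners, such as the deacetylase Sirt1, the kinase AMPK and Rxra, 22 had a promoter interval and 0 passed an adjusted p of 0.05 in either direction. Their median log2 fold change was -0.00018, with 11 positive and 11 negative. Prkaa2, the catalytic AMPK subunit of muscle, had the smallest p among the positive ones, a log2 fold change of 0.42 (SE 0.16, edgeR adjusted p = 0.947) that was 0.26 without H2A.Z dKO library 1. Among the negative ones it was Crtc2, a CREB coactivator, with -0.13 (edgeR adjusted p = 0.947), and -0.097 without H2A.Z dKO library 1.

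Of 10 genes for the expression and copying of mitochondrial DNA, on which TFAM acts, 9 were found in the annotation. All 9 had a promoter interval, 0 passed in either direction and the median log2 fold change was -0.022. Ssbp1, a DNA-binding protein of the mitochondrion, had 0.16 (edgeR adjusted p = 0.947) and Tfb1m, an rRNA methyltransferase, -0.097 (edgeR adjusted p = 0.952). Without H2A.Z dKO library 1 these values were 0.13 and -0.095. Of 20 target genes, mostly for fatty acid oxidation, 16 had a promoter interval, 0 passed and the median was 0.043, with 10 positive and 6 negative. Mfn2, a protein of mitochondrial fusion, had 0.40 (SE 0.15, edgeR adjusted p = 0.947), and 0.20 without H2A.Z dKO library 1. Hadha and Hadhb share a promoter and count as the same fragment ends. At an unadjusted p under 0.05 these 3 lists held Prkaa2 and Mfn2, 2 of their 47 genes with a promoter interval, beside 4.33% of all genes.

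Markers of other cells in muscle were summed in the same way. The 4 of 7 endothelial markers with a promoter interval summed to 60.9 to 74.7 CPM in CTL and to 50.8 to 53.6 CPM in H2A.Z dKO, without overlap, and their log2 fold changes were -0.54 at Cdh5 (edgeR adjusted p = 0.947), -0.37 at Tie1, -0.34 at Kdr and 0.17 at Tek. Without H2A.Z dKO library 1 they were -0.37, -0.55, -0.34 and -0.051 in that order, all 4 negative. The 4 of 5 fibroblast markers ran from 84.1 to 103 CPM in CTL and from 104 to 106 CPM in H2A.Z dKO. These sums did not overlap either, in the other direction. The log2 fold changes were 0.37 at Col3a1, 0.32 at Col1a2, 0.086 at Pdgfra and -0.094 at Col1a1. Without H2A.Z dKO library 1 they were 0.36, 0.23, 0.098 and -0.11. Cdh15, the only 1 of 3 satellite cell markers with a promoter interval, had 30.2 to 49.9 CPM and 46.6 to 52.6 CPM. The 8 muscle fibre markers overlapped, with 372 to 500 CPM in CTL and 374 to 527 CPM in H2A.Z dKO. None of the 6 macrophage and 3 adipocyte markers had a promoter interval. The part of these shifts in the member values was not tested.

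**Figure D4:**
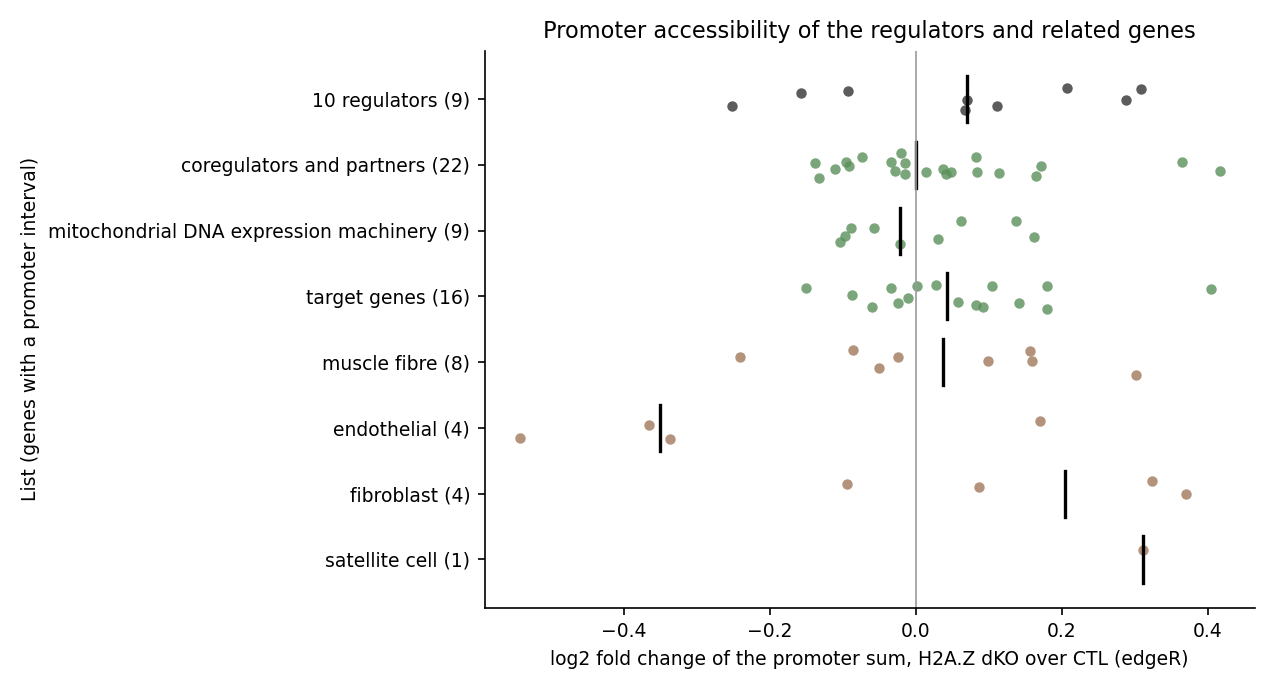
Log2 fold change (H2A.Z dKO over CTL, edgeR) of the summed promoter counts of the 9 regulators with a promoter interval, of 3 lists of related genes and of 4 lists of cell markers. Points are genes and bars are medians; the regulators run from -0.25 at Tfam to 0.31 at Ppard, around a median of 0.070, and no gene shown passed an adjusted p of 0.05.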

How the data were processed

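Per the submitters' processing notes and the methods, the authors trimmed reads with Trimmomatic, aligned them to mm9 in the local mode of Bowtie, removed duplicates with Picard, shifted fragment ends for Tn5, called peaks with MACS2 and merged the regions of both groups into intervals. They deposited, per interval and library, the raw counts of fragment ends, extended by 37 bp, without normalization. Columns of their DESeq2 comparison (mean of scaled counts, log2 fold change, standard error, statistic, p-value, adjusted p-value and weight) were not used, and 0 sample columns were left out. Starts were read as zero-based.

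Counts of all 39768 intervals were compared with edgeR 4.0.16 in R 4.3.3 (robust quasi-likelihood test, TMM factors of 0.971 to 1.02, no filter, no replicate block, two-sided, Benjamini-Hochberg adjustment over the whole table, threshold 0.05). The biological coefficient of variation was 0.126 per interval and 0.0978 per promoter sum. CPM use TMM-scaled totals and RPKM plain totals. Promoter sums add all intervals with midpoint within 1 kb of a TSS of the gene. Intervals and errors cover the spread between 3 libraries per group. DESeq2 1.42.0, other scalings, a filter on low counts, other membership and promoter windows, a replicate block and each library left out in turn were tried as alternatives. The code was tested on simulated data.

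The members, lists and tests were chosen with earlier results of these data known. Described in full are the promoter interval of each gene with the highest mean RPKM, the members of smallest p in each direction, the most accessible member outside promoters and, per list, the genes of smallest p in each direction, of which 1 is not reported here. Other intervals were named after their values were seen. Python 3.11.15, pandas 2.3.3 and pysam 0.24.0 served for tables and sequences.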

Additional observations from a re-analysis of the deposited data

How the results depend on the processing

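Under DESeq2, median-of-ratios factors, plain totals, a filter on low counts, a replicate block and the loss of any single library, edgeR or DESeq2 called 0 member intervals, 0 member promoter sums and 0 related genes at an adjusted p of 0.05. A threshold of 0.1 also gave 0 member intervals. The 5 intervals at an unadjusted p under 0.05 became 1 with DESeq2, 3 to 8 with a library left out, and 3 among members nearest to a TSS of their own gene, a choice made after seeing the data. The median log2 fold change of the members ran from 0.055 to 0.11 with a library left out, and 15 of the 47 members changed sign in at least 1 of these fits.

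Some single values near 0 turned. With a library left out, Peak_34264 of Gabpa ran from -0.10 to 0.048, Peak_32680 of Ppara from -0.053 to 0.13, Peak_2379 of Esrrg from -0.18 to 0.29, and the promoter sums of Gabpa and Ppara from -0.046 to 0.13 and from -0.019 to 0.16. The promoter sum of Ppargc1a was -0.11 with a window of 500 bp, which leaves out Peak_10434. The cause of the other shifts was not tested.

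Deviations of same-numbered libraries correlated at -0.10, -0.057 and -0.037 over intervals, and those of different numbers at -0.053 to 0.095. With 3 libraries per group these values cannot tell whether the replicate numbers of the labels pair the libraries. With the replicate block, 4 members had an unadjusted p under 0.05 and Peak_34264 turned to -0.00056. Members held mean counts of 11 to 796 per library, and at 5 of the 47 the confidence interval reached past a 2-fold change. The parts of depth and of the spread between libraries in these errors were not tested.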
